A study of Mus musculus with 100 samples.

Results

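The knee joints of STR/ort mice were compared 1 week after rupture of the anterior cruciate ligament, 5 injured joints against 4 uninjured contralateral joints. These 9 libraries were taken by their labels from the 100 RNA-seq libraries of a study that also held C57BL/6 and MRL/MpJ mice, and 17310 genes were tested. STR/ort is an inbred strain that develops osteoarthritis spontaneously with age, and the labels class it as highly susceptible to osteoarthritis after injury. All mice were 10 weeks old, and the right knee was loaded with a compressive force of 10 to 12 N. None of the groups carried a transgene or drug treatment in the labels. The paper states that mice were injured under isoflurane and given buprenorphine right after the injury. The contralateral joints came from injured mice, whereas the 4 STR/ort joints labelled 0-day were collected before any injury. The 0-day, 1-day and 1-week joints belonged to experimental batch 1 and the 2-week joints to batch 2. Each library held the femoral and tibial ends of a whole joint with small traces of soft tissue, so cartilage, bone, marrow, synovium, ligament and muscle were measured together. In such bulk samples, fewer cells of a type and less RNA per cell cannot be told apart. Only the right knee was loaded. Each joint of a group therefore came from its own mouse unless a joint was sequenced more than once, which no label says. The p-values of the main comparison measure the spread between joints, estimated together over the 28 libraries of 1 week from all strains. They do not pair the joints.

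Rupture of a ligament opens a repair process in which synovial and capsular fibroblasts divide, contract and lay down collagen, while leukocytes enter and clear debris. Collagen is secreted as a procollagen that must be hydroxylated, folded, trimmed and cross-linked, and small proteoglycans set the width of its fibrils. Matrix metalloproteinases and ADAMTS proteases cut the same matrix, and fragments of collagen and aggrecan are a mark of joints that go on to osteoarthritis.

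Depth ranged from 7584659 to 11503777 counts over genes in the 9 libraries, with a median of 9050140. Levels are given as CPM (counts scaled to a library of 1e+06) after scaling by trimmed mean of M-values (TMM), and values for single joints are listed by replicate, 1 to 5 for injured and 1 to 4 for contralateral joints. Over the genes that varied most among the 9 joints, the first principal component took 61.2% of the variance. It placed every injured joint on one side and every contralateral joint on the other. No pair of libraries within a group held identical counts. Cartilage (Col2a1, Acan), bone (Bglap), marrow (S100a8), muscle (Acta1) and synovial lining (Prg4) markers were all detected in each of the 9 joints.

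A gene was called where the edgeR quasi-likelihood test gave an adjusted p below 0.05 and the fold change passed 1.5. The injury response comprised 1594 genes, 9.21% of those tested. Of these, 982 rose (5.67% of all genes) and 612 fell (3.54%), but 392 fell without injured replicate 1 and 343 when only the 9 libraries were fitted. The rises were also larger, with 457 genes above 2-fold, 85 above 4-fold and 29 above 8-fold, against 151, 29 and 10 among the falls. The median log2 fold change over all genes was -0.03. Injured and contralateral joints did not overlap for 797 of the 982 genes that rose and 267 of the 612 that fell, beside 8.73% of all genes with every injured joint higher and 5.0% with every injured joint lower.

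**Figure D1:**
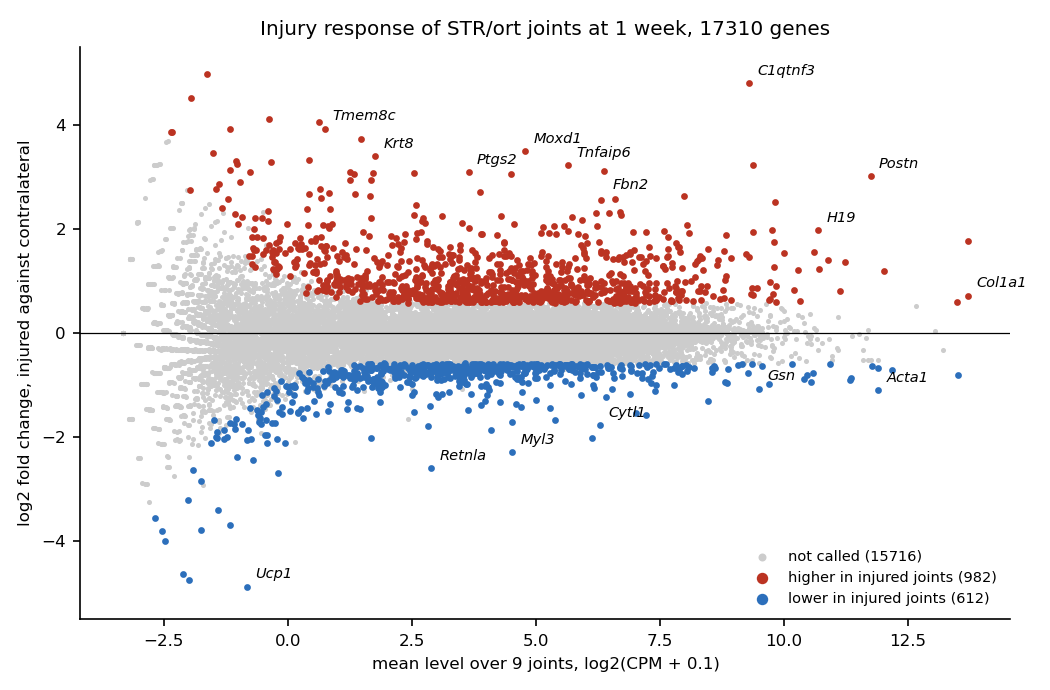
Fitted log2 fold change of injured against contralateral STR/ort joints at 1 week (y axis) against the mean level over the 9 joints, log2 of CPM plus 0.1 (x axis), 1 point per gene. The 982 genes that rose are red and the 612 that fell are blue, and more of the rises than of the falls lie beyond a 2-fold change.

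The contralateral joints were also compared with joints never exposed to injury. Against the 0-day joints, 2123 genes (12.3%) were called in the contralateral joints, 864 higher (4.99%) and 1259 lower (7.27%), but 92 when 1 factor of unwanted variation was removed with housekeeping genes (RUVg). The higher share of these calls was 40.7%, or 29.6% when scaled on housekeeping genes and 60.9% with RUVg. The 17 fast muscle genes were all lower (median log2 difference -1.19), 14 of 16 immediate early genes were lower (median -1.90) and 16 of 21 macrophage genes were higher (median 0.76). With RUVg, 0 fast muscle, 13 immediate early and 0 macrophage genes kept these calls. The fast muscle values with RUVg still lay below 0, from -1.5 (Myh2) to -0.594 (Acta1). Those of the macrophage genes lay above 0, from 0.0322 (Timd4) to 1.69 (Lyve1), except for Marco (-3.87). Set against 0-day joints, the injured joints differed in 3924 genes (22.7%), 2056 higher (11.9%) and 1868 lower (10.8%), a comparison added after the data were seen. The 0-day level, or the log2 difference of injured from 0-day joints, is given beside some of the genes and lists below.

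Among genes averaging above 1 CPM in injured joints, the largest fitted rise belonged to C1qtnf3, which encodes a secreted protein of the C1q and TNF related family made by chondrocytes and fibroblasts. C1qtnf3 measured 2055, 1150.2, 815, 766 and 745 CPM in the injured joints and 44.5, 27.4, 17.2 and 68.8 CPM in the contralateral joints (log2 fold change 4.81 ± 0.54, adjusted p = 1.52e-07, where ± is the standard error of a log2 fold change throughout). Every injured joint exceeded every contralateral joint more than 10-fold, and injured replicate 1 stood highest. The RefSeq table for GRCm38.p6 places C1qtnf3 on chromosome 15, 10952119 to 10980162, and Postn on chromosome 3, 54359267 to 54391041. Postn encodes periostin, a matricellular protein of ligament, periosteum and healing wounds. Postn measured 8379, 5725, 5524, 4422 and 4076 CPM in the injured joints and 919, 536, 434 and 876 CPM in the contralateral joints (log2 fold change 3.02 ± 0.26, adjusted p = 1.35e-09). Its 0-day level was 526 ± 109 CPM (SD, n = 4), within the range of the contralateral joints. Fbn2 encodes fibrillin-2, a microfibril protein best known from developing tissue. Fbn2 measured 177, 139, 150.2, 97.2 and 119.7 CPM in the injured joints and 18.8, 15.7, 11.8 and 16.7 CPM in the contralateral joints (log2 fold change 3.12 ± 0.23, adjusted p = 5.41e-10), and the lowest injured joint exceeded the highest contralateral joint more than 5-fold.

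Among the rises with the smallest adjusted p-values was Tnfaip6, which encodes TSG-6, a secreted protein that binds hyaluronan and damps inflammation. Tnfaip6 measured 103, 84.5, 44.9, 85.3 and 97.4 CPM in the injured joints and 10.2, 7.25, 4.52 and 13.7 CPM in the contralateral joints (log2 fold change 3.23 ± 0.25, adjusted p = 5.41e-10). Itm2a, a membrane protein gene expressed in cartilage and muscle precursors, measured 508, 382, 364, 360.0 and 388 CPM in the injured joints and 96.5, 115, 69.7 and 98.7 CPM in the contralateral joints (log2 fold change 2.07 ± 0.16, adjusted p = 5.41e-10). Both genes rose in every injured joint without overlap. Meg3 and Rian, noncoding RNAs of one imprinted locus, rose with log2 fold changes of 1.95 and 2.07, and Mest, another imprinted gene, by 2.56. Tm4sf1 (log2 fold change 1.84), Moxd1 (3.49), Ptn, the growth factor pleiotrophin (2.31), and Mfap2, a microfibril protein gene (1.52), rose with adjusted p-values between 5.41e-10 and 8.8e-10. Further large rises were at low levels. Krt8, a keratin of simple epithelia, measured 5.80, 7.70, 9.89, 2.34 and 1.79 CPM in the injured joints and 0.251, 0.725, 0.493 and 0.563 CPM in the contralateral joints. Chga and Ptprn, genes of secretory granules in neuroendocrine cells, averaged 1.16 and 2.09 CPM in injured joints against 0.0563 and 0.183 CPM in contralateral joints.

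**Figure D2:**
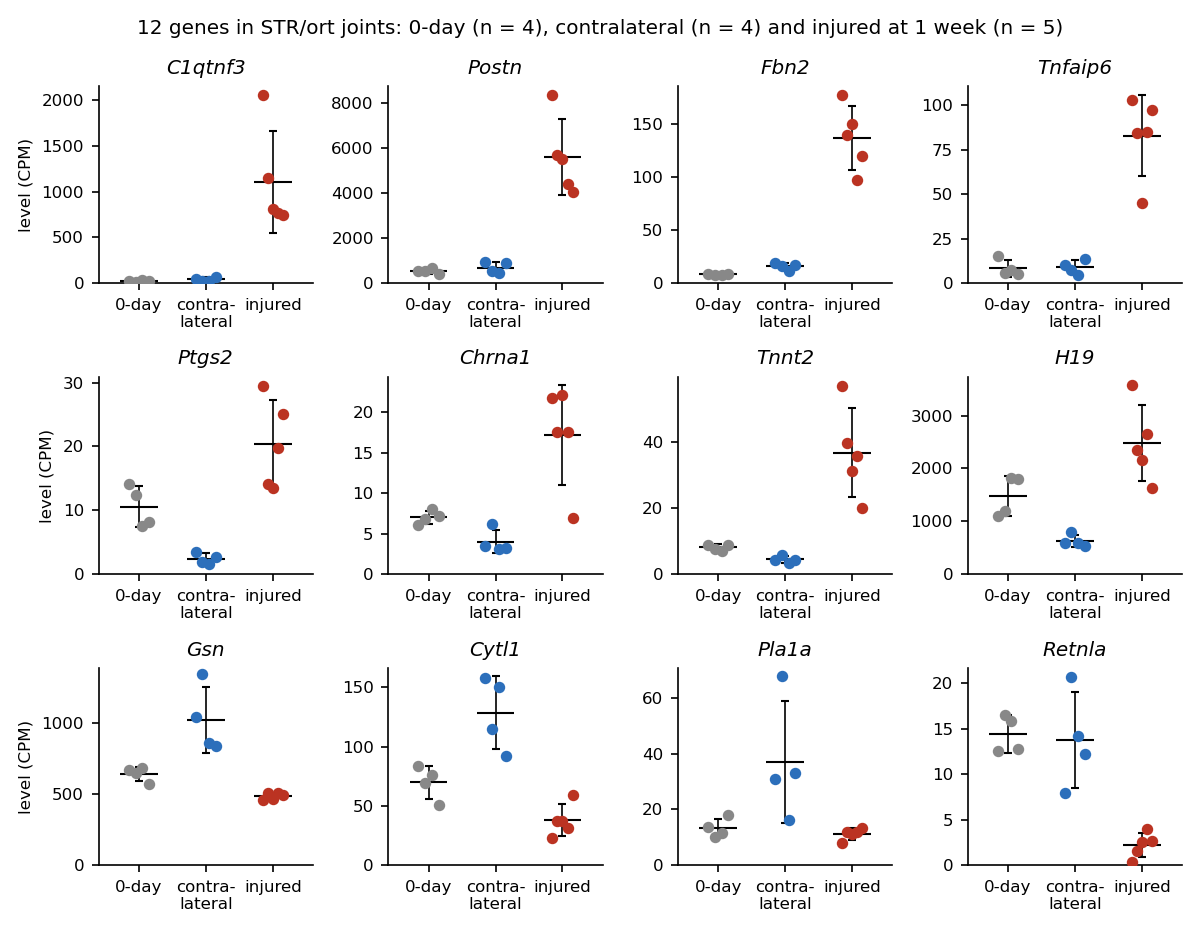
Level in CPM (y axis, linear and from 0) of 12 genes in each STR/ort joint at 0-day (grey, n = 4), contralateral at 1 week (blue, n = 4) and injured at 1 week (red, n = 5); bars are the mean and SD. The first 8 genes rose in injured joints, and the last 4 fell, with Gsn, Cytl1 and Pla1a at their highest in the contralateral joints rather than at 0-day.

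Fibrillar collagen genes are given first. Among the fibrillar and associated collagens, 14 of 15 measured members rose and 0 fell (median log2 fold change 1.37), and the remaining member, Col6a6, had a log2 fold change of 0.24. Col3a1, the collagen of early granulation tissue, measured 24869, 22824, 17065, 14790.4 and 18283 CPM in the injured joints and 7349, 6669.6, 2723 and 6167 CPM in the contralateral joints (log2 fold change 1.77 ± 0.22, adjusted p = 7.7e-07). Col12a1, a collagen on the surface of fibrils in ligament and periosteum, measured 1885, 1370.2, 1057, 1056 and 1097 CPM in the injured joints and 408, 237, 272 and 380.1 CPM in the contralateral joints (log2 fold change 1.99 ± 0.21, adjusted p = 5.34e-08). Neither gene overlapped between groups. Col1a1, the main collagen of bone and tendon, measured 22637, 19198, 11717, 12044 and 15269 CPM in the injured joints and 12486, 9268, 7914 and 9393 CPM in the contralateral joints (log2 fold change 0.72 ± 0.21, adjusted p = 0.014), so the groups overlapped and the fitted value was below that of Col3a1. The chains of collagen V (Col5a1 1.74, Col5a2 1.37, Col5a3 1.25) and collagen VI (Col6a1 1.56, Col6a2 1.40, Col6a3 1.20) and Col8a2 (2.05) also rose.

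For collagen processing and crosslinking, 19 of 26 measured members rose and 0 fell (median log2 fold change 0.75). P4ha3, a subunit of the prolyl hydroxylase that stabilises the collagen helix, measured 202, 177, 159.9, 124 and 146 CPM in the injured joints and 41.8, 37.5, 16.1 and 38.8 CPM in the contralateral joints (log2 fold change 2.28 ± 0.19, adjusted p = 1.32e-09). Its 0-day level was 12.5 ± 3.14 CPM (SD, n = 4), so the contralateral mean already stood above the 0-day mean and injured joints above both. Contralateral replicate 3 lay closest to the 0-day level. With RUVg the log2 difference of contralateral from 0-day joints was 1.86 and not called. The lysyl oxidases Lox (1.43), Loxl2 (1.40), Loxl3 (0.97) and Loxl1 (0.77) rose on the log2 scale, whereas Loxl4 (-0.28) was not called. The lysyl hydroxylases Plod1 (0.86), Plod2 (1.09) and Plod3 (0.82), the collagen chaperone gene Serpinh1 (0.73) and the endoplasmic reticulum prolyl isomerases Fkbp10 (0.90) and Fkbp14 (0.94) rose as well.

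Among activated fibroblast and matricellular genes, 16 of 26 measured members rose and 0 fell (median log2 fold change 1.00). Cthrc1, secreted by activated fibroblasts, measured 578, 460.2, 378, 301 and 313 CPM in the injured joints and 84.2, 63.7, 34.4 and 79.0 CPM in the contralateral joints (log2 fold change 2.64 ± 0.23, adjusted p = 1.42e-09). Thbs2, a thrombospondin that limits vessel growth, measured 2178, 1539, 1347, 1007 and 1033 CPM in the injured joints and 284, 242, 159 and 302 CPM in the contralateral joints (log2 fold change 2.52 ± 0.23, adjusted p = 5.05e-09). Lrrc15, a marker of activated fibroblasts, rose by 2.58 and Mfap4 by 2.17 on the log2 scale. Not every member moved. Fn1, fibronectin, measured 9837, 9986, 7871, 7103 and 7634 CPM in the injured joints and 8174, 13035, 3974 and 7918 CPM in the contralateral joints, with a log2 fold change of 0.03, while its contralateral level stood above 0-day by 1.43. Thbs1 (0.00), Fap (-0.09) and Ctgf (-0.21) were not called either.

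Basement membrane genes contributed 9 rises among 22 members and 0 falls (median 0.52), led by the laminin chain Lamb1 (1.56), Col18a1 (1.29), Lama4 (0.97) and the linker Nid1 (0.91). Of the small leucine-rich proteoglycans, 7 of 13 measured members rose and 1 fell (median log2 fold change 0.60). Aspn, asporin, measured 1226, 871, 978, 943 and 917 CPM in the injured joints and 228, 222, 131 and 438 CPM in the contralateral joints (log2 fold change 1.95 ± 0.26, adjusted p = 1.66e-06). Ogn (1.65), Kera (1.60), Bgn (1.20), Fmod (0.90) and Lum (0.83) rose, Omd, a proteoglycan of bone, fell by 0.68 on the log2 scale, and Dcn, decorin (0.06), was not called.

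Muscle and marrow RNA also differed between the groups. The summed level of the 15 collagens was 47909 to 84676 CPM in injured joints and 21484 to 37942 CPM in contralateral joints. The 17 fast muscle genes summed to 20290.5 to 44318 CPM in injured joints and 39676 to 74846 CPM in contralateral joints, and the 16 neutrophil and marrow granule genes to 9548 to 13399 CPM and 15738 to 20847 CPM. Injured replicate 1 held the highest collagen sum and the lowest marrow and erythroid sums, and contralateral replicate 3 held the lowest collagen sum and the highest marrow and erythroid sums. The part of tissue composition in the matrix response was not tested. Without injured replicate 1, the count of genes that fell was 392 and the count that rose was 795. The collagen genes called higher numbered 12 to 14 whichever single joint was left out.

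**Figure D3:**
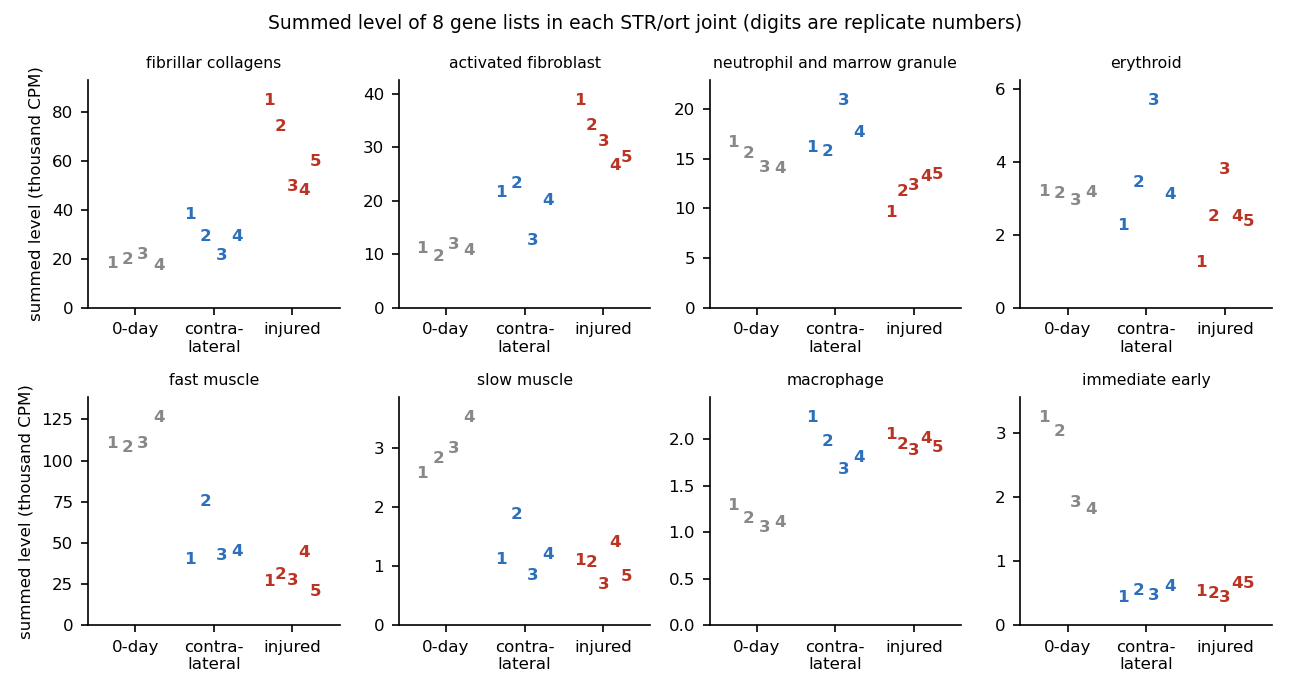
Summed level of 8 gene lists (y axes, CPM / 1000, from 0) in each STR/ort joint, with the replicate number as the plotted digit; 0-day joints are grey, contralateral joints blue and injured joints red. Collagen sums of injured joints lie above all contralateral joints, marrow granule sums lie below them, and muscle and immediate early sums of both 1-week groups lie below those of the 0-day joints.

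Matrix proteases rose in part. Of the matrix metalloproteinases, 6 of 16 measured members rose and 1 fell (median log2 fold change 0.41). Mmp14, a membrane-bound collagenase that activates pro-Mmp2, measured 1049, 807, 941, 699 and 772 CPM in the injured joints and 339.9, 305, 248 and 287 CPM in the contralateral joints (log2 fold change 1.53 ± 0.13, adjusted p = 1.36e-09). Mmp2, a gelatinase, measured 1432, 1302, 1196, 982 and 1147 CPM in the injured joints and 566, 608, 326 and 503 CPM in the contralateral joints (log2 fold change 1.27 ± 0.15, adjusted p = 2.62e-07). Both were higher in every injured joint. Mmp23 (1.45), Mmp12 (1.45), Mmp19 (0.92) and Mmp11 (0.81) also rose, and Mmp8, the collagenase stored in neutrophils, fell by 0.64 on the log2 scale. Mmp13, the main collagenase of cartilage, measured 633, 798, 972, 672 and 796 CPM in the injured joints and 611, 437, 768 and 636 CPM in the contralateral joints (log2 fold change 0.33 ± 0.16, adjusted p = 0.145), with overlapping groups. Mmp3, stromelysin, had a log2 fold change of 0.54 (adjusted p = 0.0696) and a contralateral level above 0-day by 2.06. Among the 4 tissue inhibitors, Timp1 (1.46) and Timp2 (0.75) rose, Timp4 fell by 1.52, and Timp3 (-0.34, adjusted p = 0.00197) stayed within 1.5-fold.

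Of the ADAMTS proteases, 9 of 19 measured members rose and 1 fell (median log2 fold change 0.42). Adamts4, which cleaves aggrecan, measured 46.6, 36.6, 23.0, 16.9 and 24.3 CPM in the injured joints and 11.1, 9.79, 6.58 and 8.22 CPM in the contralateral joints (log2 fold change 1.72 ± 0.22, adjusted p = 9.56e-07). Adamts12 rose by 1.54 and Adamts16 by 1.40 on the log2 scale. Adamts5, the other main aggrecan-cleaving enzyme, measured 85.4, 85.5, 95.4, 83.0 and 86.4 CPM in the injured joints and 112, 189, 108 and 101 CPM in the contralateral joints, and its log2 fold change of -0.55 (adjusted p = 0.00159) fell short of the 1.5-fold limit. The 2 aggrecanases therefore had log2 fold changes of opposite sign in the same joints. In the plasminogen system, which activates metalloproteinases and dissolves fibrin, 6 of 14 measured members rose and 1 fell (median log2 fold change 0.31). The activators Plau (1.07) and Plat (1.06) and the thrombin receptor gene F2r (0.91) rose.

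Among growth factors, the TGF-beta and BMP list had 8 rises, 1 fall and 19 members not called, with a median log2 fold change of 0.04. Inhba, a subunit of activin A, measured 154, 102, 72.1, 64.0 and 79.4 CPM in the injured joints and 30.8, 26.1, 19.7 and 26.6 CPM in the contralateral joints (log2 fold change 1.87 ± 0.19, adjusted p = 1.79e-08). Gdf5, a ligand of joint development, measured 10.8, 3.39, 3.39, 2.85 and 3.49 CPM in the injured joints and 0.628, 0.967, 0.575 and 1.91 CPM in the contralateral joints (log2 fold change 2.22 ± 0.41, adjusted p = 0.000226). Injured replicate 1 stood well above the other injured joints for Gdf5. Fstl1 (1.53), the latent TGF-beta binding proteins Ltbp1 (0.97) and Ltbp2 (0.96) and the ligand Tgfb3 (0.84) rose. Tgfb1 (-0.22) was not called.

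In the insulin-like growth factor group, 6 of 10 measured members rose and 0 fell (median log2 fold change 0.70). Igf1, a growth factor that drives matrix synthesis, measured 531, 414, 556, 489 and 552 CPM in the injured joints and 183, 169.6, 96.7 and 209.6 CPM in the contralateral joints (log2 fold change 1.62 ± 0.16, adjusted p = 8.15e-09). Igf2 measured 43.4, 36.3, 35.6, 48.6 and 39.1 CPM in the injured joints and 18.0, 19.2, 18.2 and 15.4 CPM in the contralateral joints (log2 fold change 1.19 ± 0.13, adjusted p = 1.34e-07), and Igfbp3 (1.47) and Igfbp4 (0.87) rose with them. None of these 4 genes overlapped between groups.

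The Wnt list was divided. Of the receptors and antagonists, 6 of 24 measured members rose and 4 fell (median log2 fold change 0.02). Sfrp1, a secreted antagonist that binds Wnt ligands, measured 107, 98.8, 79.0, 73.0 and 67.9 CPM in the injured joints and 26.4, 19.8, 14.8 and 29.6 CPM in the contralateral joints (log2 fold change 1.91 ± 0.16, adjusted p = 1.04e-09). Dkk3 (1.96), Sfrp2 (1.75) and the receptors Fzd2 (1.46), Fzd6 (1.26) and Fzd1 (0.86) rose, whereas the antagonists Sfrp5 (-0.94), Wif1 (-0.89), Dkk1 (-0.69) and Frzb (-0.59) fell. The falls numbered 2 when injured replicate 1 or contralateral replicate 3 was left out.

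Inflammatory mediators rose in a limited set, at low levels. Of 15 prostaglandin and leukotriene genes, 2 rose, 2 fell and 11 were not called (median log2 fold change -0.39), beside 5.67% and 3.54% of all genes. Ptgs2, the inducible cyclooxygenase that makes prostaglandin precursors, measured 29.5, 14.1, 13.5, 19.7 and 25.1 CPM in the injured joints and 3.52, 1.81, 1.64 and 2.70 CPM in the contralateral joints (log2 fold change 3.09 ± 0.35, adjusted p = 1.33e-07). Its 0-day level was 10.6 ± 3.21 CPM (SD, n = 4), so the contralateral joints were below 0-day by 2.15 on the log2 scale, and the injured joints had a log2 difference of 0.95 from 0-day (adjusted p = 0.00502). Ptges, prostaglandin E synthase, rose by 0.94, and Alox15, a lipoxygenase that makes precursors of lipid mediators which end inflammation, measured 17.1, 18.1, 17.2, 16.9 and 18.4 CPM in the injured joints and 29.5, 30.2, 32.2 and 34.1 CPM in the contralateral joints (log2 fold change -0.85 ± 0.11, adjusted p = 6.93e-07), lower in every injured joint.

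In the interleukin-6 family, 5 of 15 measured members rose and 1 fell (median log2 fold change 0.38). Il11, a cytokine that acts on fibroblasts, measured 12.9, 7.70, 4.90, 7.22 and 11.8 CPM in the injured joints and 1.26, 2.90, 1.32 and 1.91 CPM in the contralateral joints (log2 fold change 2.27 ± 0.31, adjusted p = 3.6e-06). Il6 measured 2.21, 1.18, 1.34, 3.56 and 1.89 CPM in the injured joints and 0.503, 0.725, 0.575 and 0.450 CPM in the contralateral joints (log2 fold change 1.83 ± 0.43, adjusted p = 0.0023), and its 0-day level was 1.37 ± 1.02 CPM. Osmr, the oncostatin M receptor (0.73), and Socs3, a feedback inhibitor of these receptors (1.00), also rose, and the ligand Osm fell by 0.68 (adjusted p = 0.0295, or 0.0558 with the joints paired by replicate number). In the interleukin-1 family, 4 of 14 measured members rose and 0 fell (median log2 fold change -0.15), namely the receptor genes Il1r1 (1.01), Il1rl1 (1.52) and Il1rl2 (0.75) and the alarmin Il33 (1.48). Il1rl1, the receptor for Il33, measured 103, 118, 102, 54.8 and 61.6 CPM in the injured joints and 32.0, 31.4, 30.4 and 27.4 CPM in the contralateral joints. Il1b (-0.06) and Tnf (-0.42) were not called.

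Some chemokine ligands rose. Of the CC chemokines, 5 of 18 measured members rose and 1 fell (median log2 fold change 0.11), and of the CXC chemokines, 5 of 12 measured members rose and 1 fell (median log2 fold change 0.17). Ccl2, which attracts monocytes, measured 5.69, 8.49, 4.37, 3.35 and 4.68 CPM in the injured joints and 4.15, 1.81, 1.40 and 1.35 CPM in the contralateral joints (log2 fold change 1.30 ± 0.30, adjusted p = 0.00186), with contralateral replicate 1 inside the injured range. Cxcl1, which attracts neutrophils, measured 2.55, 2.74, 1.16, 4.88 and 6.37 CPM in the injured joints and 1.88, 0.604, 0.904 and 1.24 CPM in the contralateral joints (log2 fold change 1.62 ± 0.40, adjusted p = 0.00402), and its 0-day level of 20.7 ± 11.7 CPM exceeded every 1-week joint. Cxcl5 (1.29), Ccl7 (1.72), Ccl8 (1.27) and Cxcl16 (1.16) rose, and Ccl20, also called higher, had 0 counts in all 4 contralateral joints and below 1 CPM in every injured joint (adjusted p = 0.0598 with the joints paired). With contralateral replicate 3 left out, 3 CC chemokines were called higher. Of the 18 chemokine receptors, 0 rose and Ccr3 (-0.65, adjusted p = 0.0124, or 0.0571 with the joints paired) and Ackr2 (-0.71, but 0.91 from 0-day) fell.

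Macrophage genes differed between the control groups, as given above. Of the macrophage genes, 3 of 21 measured members rose and 5 fell (median log2 fold change -0.13) against contralateral joints, whereas against 0-day joints 13 were higher and 1 lower (median 0.81). Ms4a7 measured 37.8, 34.7, 31.2, 32.0 and 34.8 CPM in the injured joints and 17.1, 12.5, 10.8 and 11.3 CPM in the contralateral joints (log2 fold change 1.41 ± 0.12, adjusted p = 1.07e-09). Retnla, a product of alternatively activated macrophages, measured 0.348, 1.57, 2.50, 3.96 and 2.69 CPM in the injured joints and 7.91, 20.7, 14.2 and 12.3 CPM in the contralateral joints (log2 fold change -2.60 ± 0.34, adjusted p = 1.7e-06), the opposite direction to Ms4a7. Lyve1, carried by lymphatic endothelium and resident macrophages, measured 29.1, 41.0, 41.8, 40.1 and 39.4 CPM in the injured joints and 100.4, 119.6, 54.1 and 75.5 CPM in the contralateral joints (log2 fold change -1.19 ± 0.15, adjusted p = 1.32e-06), against 39.7 ± 6.62 CPM at 0-day. Cd68 (0.02), Adgre1 (0.20) and Csf1r (-0.13) were not called.

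Of the neutrophil and marrow granule genes, 0 of 16 measured members rose and 8 fell (median log2 fold change -0.59), including S100a8 (-0.60), Lcn2 (-0.64), Csf3r (-0.65) and Elane (-0.68). Without contralateral replicate 3 the count was 2, without injured replicate 1 it was 5, and without contralateral replicate 2 it was 13. Among erythroid genes, 0 of 12 measured members rose and 3 fell (median log2 fold change -0.56), with 0 called when either injured replicate 1 or contralateral replicate 3 was left out, 1 when injured replicate 2 or 5 was, and 10 when injured replicate 3 or contralateral replicate 1 was. The T cell (1 of 13, Lat), B cell (2 of 13, Jchain, which stood 0.16 above 0-day, and Vpreb3) and mast cell (1 of 9, Hdc) lists held falls only, beside 3.54% of all genes called lower. In the B cell list 10 of 13 members were at an unadjusted p below 0.05, and against 0-day joints 9 were lower and 0 higher (median -0.68). Of 21 interferon-stimulated genes, 0 were called by edgeR or DESeq2 (4 at an unadjusted p below 0.05, as were 33.3% of all genes, median -0.15), and of 24 cell cycle genes, 0 were called by either (14 at an unadjusted p below 0.05, median -0.28).

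In the complement list, Cfi (3.28), C3ar1 (0.82) and C2 (0.73) rose, Cfd (-1.06, but 0.01 from 0-day) and C7 (-1.18) fell, and 12 of 17 members were not called.

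Of the cartilage matrix genes, 2 of 23 measured members rose and 4 fell (median log2 fold change -0.32), and 4 had a log2 fold change above 0. Acan, aggrecan, measured 1510.4, 1012, 899.7, 788 and 1181 CPM in the injured joints and 606, 494, 501 and 576 CPM in the contralateral joints (log2 fold change 0.98 ± 0.19, adjusted p = 0.000314), whereas Col2a1, the main cartilage collagen, measured 3341, 2847, 1503, 2597 and 3708 CPM in the injured joints and 3604, 3631, 2998 and 3683 CPM in the contralateral joints (log2 fold change -0.32 ± 0.31, adjusted p = 0.517). The Acan groups did not overlap and the Col2a1 groups did. Cytl1, a secreted protein of chondrocytes, measured 23.0, 37.2, 37.5, 31.3 and 59.5 CPM in the injured joints and 158, 115, 150.5 and 92.1 CPM in the contralateral joints (log2 fold change -1.77 ± 0.22, adjusted p = 7.31e-07), against 69.9 ± 14.0 CPM at 0-day. Chad, chondroadherin, measured 219, 351, 250.4, 319 and 479.9 CPM in the injured joints and 587, 566, 524 and 844 CPM in the contralateral joints (log2 fold change -0.97 ± 0.21, adjusted p = 0.00122), against 337 ± 51.7 CPM at 0-day. Matn4 (1.33) rose, Col10a1 (-0.80) fell, and Comp (-0.07) and Prg4, lubricin (-0.33), were not called. Under the pairing of joints by replicate number, which called 9.06% of all genes, 5.66% higher and 3.41% lower, 7 cartilage matrix genes were called lower, against 4 without it, and 2 when injured replicate 1 or 3 was left out. Of 19 chondrogenic and osteogenic regulators, 3 rose, 2 fell and 14 were not called (median log2 fold change -0.04), beside 5.67% and 3.54% of all genes. Sox11 (1.41), Runx1 (0.90) and Sox9, the master regulator of chondrocytes (0.82), rose, and the osteoblast regulators Sp7 (-0.76) and Dlx5 (-0.69, but 0.26 from 0-day) fell.

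Bone-forming genes were lower in part. Of the osteoblast and osteocyte genes, 1 of 17 measured members rose and 9 fell (median log2 fold change -0.72). Bglap, osteocalcin, measured 288, 239.7, 110.4, 220.4 and 218 CPM in the injured joints and 787, 426, 444 and 463 CPM in the contralateral joints (log2 fold change -1.31 ± 0.20, adjusted p = 1.94e-05). All 5 injured joints lay below the contralateral joints, and contralateral replicate 1 stood apart at the top. Sost, the osteocyte inhibitor of Wnt signalling, measured 27.7, 41.1, 27.2, 30.3 and 55.5 CPM in the injured joints and 92.2, 36.7, 101 and 55.6 CPM in the contralateral joints (log2 fold change -0.99 ± 0.22, adjusted p = 0.00135), with overlap at contralateral replicate 2. Smpd3 (-0.82), Phospho1 (-0.81), Ifitm5 (-0.72, adjusted p = 0.11 with the joints paired), Phex (-0.65) and Kazald1 (-0.72) also fell, as did Bglap2 (-1.22), a near copy of Bglap that can share its reads. The member that rose, Pdpn (1.28), is also a marker of activated fibroblasts. The falls numbered 6 to 11 whichever joint was left out. Against 0-day joints, 4 of these 17 genes were lower and 2 higher in injured joints (median -0.09), and the contralateral joints lay above 0-day by a median of 0.59. In the osteoclast list, Tnfsf11, the ligand RANKL, measured 9.17, 7.96, 7.93, 11.1 and 12.7 CPM in the injured joints and 5.40, 5.56, 6.99 and 6.98 CPM in the contralateral joints (log2 fold change 0.64 ± 0.20, adjusted p = 0.0205, or 0.0319 and under 1.5-fold with the joints paired), and 15 of 16 members were not called, a rise in 1 of 16 beside 5.67% of all genes.

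Tendon and ligament genes changed in both directions. In this list, 6 of 12 measured members rose and 4 fell (median log2 fold change 0.66). Scx, the transcription factor of tendon progenitors, measured 30.5, 24.0, 17.0, 17.8 and 20.9 CPM in the injured joints and 5.78, 6.53, 4.11 and 7.21 CPM in the contralateral joints (log2 fold change 1.90 ± 0.20, adjusted p = 5.57e-08). Tnmd, tenomodulin, measured 329, 298, 319, 356 and 342 CPM in the injured joints and 82.5, 77.6, 56.8 and 178 CPM in the contralateral joints (log2 fold change 1.73 ± 0.24, adjusted p = 5.03e-06). Mkx (1.15), Kera (1.60), Thbs4 (1.24) and Fmod (0.90) rose too, whereas Myoc (-1.44), Tnxb (-1.24), Angptl7 (-1.12) and Wif1 (-0.89) fell. These counts were 6 and 4 whichever joint was left out. In the synovial list, 3 of 14 measured members rose and 2 fell (median log2 fold change 0.07), beside 5.67% and 3.54% of all genes. Has2, a hyaluronan synthase (1.44), and Vcan, the proteoglycan versican (1.48), rose, while Clic5 measured 52.8, 62.4, 79.1, 92.0 and 66.7 CPM in the injured joints and 189, 340.2, 132 and 158 CPM in the contralateral joints (log2 fold change -1.53 ± 0.21, adjusted p = 2.28e-06).

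**Figure D4:**
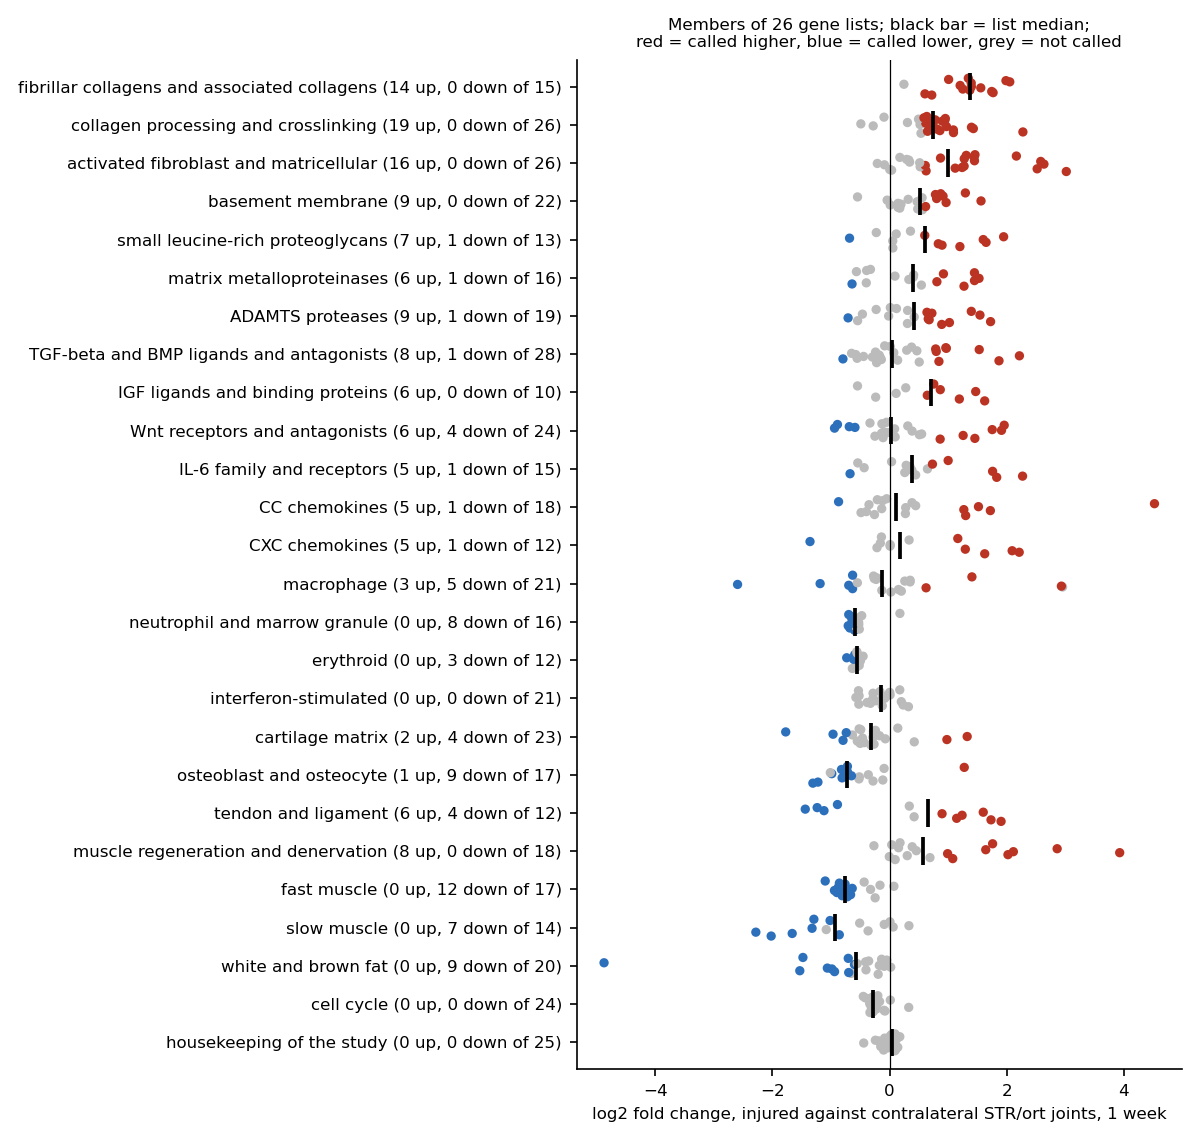
Fitted log2 fold change (x axis) of each member of 26 gene lists (rows), 1 point per gene, red where it rose, blue where it fell and grey where it was not called; the black bar is the list median. Collagen and fibroblast lists lie to the right of 0, fast and slow muscle, marrow, fat and osteoblast lists have medians to the left, and the tendon and Wnt lists hold calls on both sides.

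The muscle lists held falls among genes of mature fibres and rises among genes of regenerating or denervated muscle. Of the fast muscle genes, 0 of 17 measured members rose and 12 fell (median log2 fold change -0.76), and of the slow muscle genes, 0 of 14 measured members rose and 7 fell (median log2 fold change -0.94). Acta1, skeletal actin, measured 2495, 2809.6, 1951, 3744 and 1697 CPM in the injured joints and 4656, 8363, 4467 and 4232 CPM in the contralateral joints (log2 fold change -1.10 ± 0.22, adjusted p = 0.000404), against 11344 ± 1256 CPM at 0-day. Myh7, the slow myosin heavy chain, measured 12.9, 25.7, 14.2, 66.1 and 27.9 CPM in the injured joints and 104, 253, 39.3 and 84.8 CPM in the contralateral joints (log2 fold change -2.02 ± 0.58, adjusted p = 0.0113), with injured replicate 4 and contralateral replicate 2 far above their groups. The fast muscle falls numbered 5 without contralateral replicate 2, and the slow muscle falls 2 without it and 4 without injured replicate 1, 3 or 5. Among metabolic lists, Eno3 (-0.97), Pgam2 (-0.94) and Pygm (-0.60, adjusted p = 0.0544 with the joints paired) fell of 16 glycolysis genes (13 at an unadjusted p below 0.05) and Cox6a2 (-0.75) and Cox7a1 (-1.14) of 81 respiratory chain genes (46 at an unadjusted p below 0.05), beside 3.54% of all genes called lower and 33.3% at that unadjusted p. Of 20 genes of the citrate cycle and fatty acid oxidation, 0 were called by edgeR or DESeq2 (13 at an unadjusted p below 0.05, median -0.34). Against 0-day joints, 12 glycolysis, 68 respiratory chain and 19 citrate cycle and fatty acid oxidation genes were lower in injured joints and 3, 1 and 1 higher.

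In the muscle regeneration and denervation list, 8 of 18 measured members rose and 0 fell (median log2 fold change 0.57). Tmem8c encodes myomaker, the membrane protein that fuses myoblasts. Tmem8c measured 3.48, 2.74, 1.78, 3.15 and 2.29 CPM in the injured joints and 0.251, 0.242, 0 and 0.225 CPM in the contralateral joints (log2 fold change 3.93 ± 0.50, adjusted p = 1.15e-06). Chrna1, the alpha subunit of the muscle acetylcholine receptor, measured 21.7, 17.5, 22.1, 17.6 and 6.87 CPM in the injured joints and 3.52, 6.17, 3.04 and 3.26 CPM in the contralateral joints (log2 fold change 2.11 ± 0.31, adjusted p = 7.88e-06). Injured replicate 5 was the lowest injured joint for Chrna1 yet lay above every contralateral joint, and the 0-day mean was 7.01 ± 0.804 CPM. Myh3, the embryonic myosin heavy chain, measured 20.7, 25.7, 13.4, 24.8 and 8.86 CPM in the injured joints and 4.52, 6.53, 3.53 and 3.83 CPM in the contralateral joints (log2 fold change 2.02 ± 0.31, adjusted p = 1.73e-05). Sln, sarcolipin, rose by 1.76, Chrnd by 1.64, Myog, the myogenic factor myogenin, by 1.08, and Myh8, the perinatal myosin heavy chain, by 0.99. Chrng, the fetal gamma subunit of the receptor, measured 0.580, 0.522, 0.178, 0.407 and 0.697 CPM in the injured joints and 0, 0, 0.164 and 0 CPM in the contralateral joints, a few reads at most (adjusted p = 0.00938, or 0.087 with the joints paired). Myod1 (0.10), Pax7 (0.30) and Chrne, the adult subunit (0.15), were not called. The contralateral joints were lower than 0-day joints for 7 of the 18 genes, Myh8 and Chrnd among them, and against 0-day the injured joints had 6 higher and 4 lower (median -0.02).

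The receptor subunit genes Chrna1, Chrnd and Chrng were called higher, Chrng without the pairing only, and upstream sequence is shown for those with a window in the table used. Myogenin and its relatives bind E-boxes, and the form CAGCTG, which reads the same on both strands, was searched in the 250 bases before each transcript start in the RefSeq table for GRCm38.p6. It occurred in 13% of 32851 such windows, and 1.26% held 2 or more copies. Of the 8 genes that rose, 5 had a window in the table, and 2 of these, Chrna1 (chr2:73580339-73580588, minus strand) and Chrng (chr1:87205561-87205810, plus strand), held 2 copies each, here in capitals within the sequence read 5′ to 3′ toward the start. The copies begin 92 and 44 bases before the start in Chrna1 and 155 and 132 bases before it in Chrng. Myog, Myh3 and Myh8 held no copy in their windows. A match describes the letters in this window and is no evidence of binding.
Chrna1: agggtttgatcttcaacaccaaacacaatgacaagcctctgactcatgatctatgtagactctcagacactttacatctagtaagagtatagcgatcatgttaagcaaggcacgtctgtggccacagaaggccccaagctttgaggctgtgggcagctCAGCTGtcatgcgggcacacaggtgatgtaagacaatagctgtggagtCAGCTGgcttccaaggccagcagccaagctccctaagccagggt
Chrng: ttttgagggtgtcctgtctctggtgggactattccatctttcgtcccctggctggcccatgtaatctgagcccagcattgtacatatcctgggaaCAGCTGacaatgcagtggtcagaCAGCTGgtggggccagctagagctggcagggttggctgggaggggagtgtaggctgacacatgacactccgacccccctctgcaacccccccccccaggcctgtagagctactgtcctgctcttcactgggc

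Fat, vessel and nerve genes changed in part. Of the white and brown fat genes, 0 of 20 measured members rose and 9 fell (median log2 fold change -0.58). Pck1, a gene of glyceride synthesis in fat, measured 7.55, 6.14, 5.79, 9.66 and 4.88 CPM in the injured joints and 31.8, 14.1, 13.2 and 17.2 CPM in the contralateral joints (log2 fold change -1.48 ± 0.26, adjusted p = 0.000117). Ucp1, the uncoupling protein of brown fat, measured 0, 0, 0, 0.102 and 0 CPM in the injured joints and 0, 2.66, 0 and 1.46 CPM in the contralateral joints, so its call rested on contralateral replicates 2 and 4. Without contralateral replicate 2, the fat genes called lower numbered 4. Among endothelial genes, Apln, a peptide of growing vessels, measured 14.5, 13.4, 13.9, 10.3 and 16.2 CPM in the injured joints and 4.52, 2.90, 4.44 and 5.29 CPM in the contralateral joints (log2 fold change 1.66 ± 0.18, adjusted p = 1.14e-07), its receptor Aplnr rose by 1.30 and Emcn by 0.69, and 18 of 21 members were not called. In the Schwann cell and neurotrophin list, 4 of 16 measured members rose and 1 fell (median log2 fold change 0.21), beside 5.67% and 3.54% of all genes. Bdnf (2.07), Gap43, a protein of growing axons (1.94), and Ngfr (0.93, adjusted p = 0.0535 with the joints paired) rose and S100b (-0.66) fell.

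General programmes are given by their calls, beside 5.67% of all genes called higher and 3.54% called lower. Ier3 (0.98, but -0.52 from 0-day) rose alone among 16 immediate early genes, Npas2 (0.65) alone among 15 clock genes, Hspb6 (-0.83) fell alone among 12 heat shock genes and Klf15 (-0.77, adjusted p = 0.0558 with the joints paired) alone among 10 atrophy genes. Against 0-day joints, 13 immediate early, 9 clock, 7 heat shock and 5 atrophy genes were lower in injured joints and 0, 2, 0 and 0 higher. Of 22 oxidative stress genes, Nox4 (0.67) and Sod3 (0.65) rose, 1 of them when injured replicate 1 was left out and neither without contralateral replicate 3, and 16 were at an unadjusted p below 0.05 beside 33.3% of all genes. Among 80 ribosomal protein genes, Rpl39l (0.73) rose and Rpl3l (-0.69), a muscle form, fell. The 25 housekeeping genes of the study held 0 calls by edgeR or DESeq2 (3 at an unadjusted p below 0.05) and had a median of 0.03, and 4 of 18 TNF and NF-kB genes rose, Tnfaip6, Tnfsf18 (2.35), Tnfrsf12a (1.34) and Tnfsf15 (1.02, adjusted p = 0.112 with the joints paired).

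For several of the falls with the smallest p-values the 0-day level is also given, and the contralateral joints enter both comparisons. Gsn, the actin-severing protein gelsolin, measured 458, 509.5, 462, 504 and 493 CPM in the injured joints and 1038, 1341, 855 and 838 CPM in the contralateral joints (log2 fold change -1.07 ± 0.10, adjusted p = 4.21e-09), against 642 ± 48.3 CPM at 0-day. Megf10, a receptor that engulfs cell debris and acts in muscle satellite cells, measured 8.01, 9.14, 10.2, 10.6 and 9.06 CPM in the injured joints and 21.5, 34.7, 18.7 and 18.4 CPM in the contralateral joints (log2 fold change -1.30 ± 0.14, adjusted p = 7e-08), against 12.3 ± 2.01 CPM at 0-day. Pla1a, a phospholipase, measured 7.78, 11.9, 11.2, 11.8 and 13.4 CPM in the injured joints and 30.9, 67.9, 16.4 and 33.1 CPM in the contralateral joints (log2 fold change -1.71 ± 0.22, adjusted p = 1.7e-06), against 13.3 ± 3.47 CPM at 0-day. Tnxb, tenascin-X, measured 41.3, 48.0, 50.6, 69.2 and 56.9 CPM in the injured joints and 164, 164, 83.8 and 91.2 CPM in the contralateral joints (log2 fold change -1.24 ± 0.16, adjusted p = 1.61e-06), and Pcsk6, a proprotein convertase, measured 58.7, 61.5, 52.4, 67.2 and 68.8 CPM in the injured joints and 137, 171, 97.3 and 116 CPM in the contralateral joints (log2 fold change -1.08 ± 0.12, adjusted p = 8.68e-08). Their 0-day levels were 71.1 ± 8.72 CPM and 69.4 ± 3.93 CPM. Chdh, choline dehydrogenase, fell by 0.78 on the log2 scale, with 16.4 ± 2.48 CPM at 0-day, and the 0-day level of Alox15 was 31.2 ± 7.57 CPM. The contralateral joints were called above 0-day for Gsn (0.67), Megf10 (0.92), Pla1a (1.47), Tnxb (0.83), Pcsk6 (0.92), Ccdc3 (0.99), Lyve1 (1.14) and Cytl1 (0.89). With RUVg, only Pcsk6 (1.29, adjusted p = 0.0375) and Ccdc3 (1.28, adjusted p = 0.0481) of these 8 kept that call. The RUVg values not called were 0.875 for Gsn, 1.48 for Megf10, 2.21 for Pla1a, 1.2 for Tnxb, 1.69 for Lyve1 and 0.561 for Cytl1. The log2 differences of injured from 0-day joints were -0.17 for Pcsk6, 0.13 for Ccdc3 and -0.05 for Lyve1. Retnla and Scg3 (-2.03) were among the largest falls outside muscle and fat.

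The same contrast was fitted in the other strains at 1 week, 5 injured and 5 contralateral joints of C57BL/6 and 9 joints of MRL/MpJ, to see where STR/ort differed. The C57BL/6 joints gave 1007 calls (5.82%), 822 higher (4.75%) and 185 lower (1.07%), and the MRL/MpJ joints 541 (3.13%), 508 higher (2.93%) and 33 lower (0.191%). Of the 982 genes that rose in STR/ort, 56.2% were also called higher in C57BL/6 and 35.6% in MRL/MpJ, which were 67.2% and 68.9% of those strains' own lists. Of the 612 that fell, 9.97% were also called lower in C57BL/6 and 1.8% in MRL/MpJ, which were 33.0% and 33.3% of their lists. These shares compare lists of unequal size, and a direct test of the difference in injury effect called 85 genes (0.491%) between STR/ort and C57BL/6 and 153 (0.884%) between STR/ort and MRL/MpJ. The effect was higher in STR/ort for 24 (0.139%) and 63 (0.364%) of them and lower for 61 (0.352%) and 90 (0.52%). The higher share against C57BL/6 was 28.2%, or 19% when scaled on housekeeping genes and 43.1% by DESeq2. Both tests share the STR/ort joints. The first count was 53 without injured replicate 1, 56 without injured replicate 2 and 142 without contralateral replicate 3, and the second was 100 without injured replicate 1.

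Tnnt2, the cardiac troponin T that immature and regenerating muscle also makes, rose further in STR/ort than in the other strains. Tnnt2 measured 57.1, 39.7, 31.4, 35.7 and 20.1 CPM in the injured joints and 4.40, 5.92, 3.21 and 4.28 CPM in the contralateral joints in STR/ort. Its mean was 7.28 ± 2.50 CPM in injured and 5.37 ± 1.97 CPM in contralateral C57BL/6 joints (SD, n = 5 each), and 5.23 ± 1.24 CPM and 3.33 ± 1.03 CPM in MRL/MpJ. The log2 fold changes were 3.06 in STR/ort, 0.50 in C57BL/6 and 0.70 in MRL/MpJ, and the STR/ort effect exceeded the C57BL/6 effect by 2.56 ± 0.39, adjusted p = 0.000917, and the MRL/MpJ effect by 2.36 ± 0.44, adjusted p = 0.0045. Il1rl1 rose by 1.52 in STR/ort against 0.15 and 0.07, a difference of 1.37 ± 0.22, adjusted p = 0.000919 from C57BL/6. H19, an imprinted noncoding RNA, measured 3580.0, 2344, 2165, 2663 and 1630.0 CPM in the injured joints and 582, 803, 586 and 536 CPM in the contralateral joints, and its effect exceeded that of MRL/MpJ by 1.35 ± 0.25, adjusted p = 0.0045. The H19 level at 0-day was 1478 ± 384 CPM, between the contralateral and injured joints.

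Several genes with a lower effect in STR/ort had a higher contralateral level there, which enters the effect itself. Sned1, an extracellular matrix protein gene, measured 6.27, 7.57, 8.38, 9.35 and 6.17 CPM in the injured joints and 15.8, 16.2, 6.74 and 11.1 CPM in the contralateral joints in STR/ort, with a mean of 3.06 ± 1.07 CPM in contralateral and 9.49 ± 1.48 CPM in injured C57BL/6 joints. Injured joints were thus lower in STR/ort (-0.70, with an adjusted p of 0.0119, or 0.109 with the joints paired) and higher in C57BL/6 (1.64), a difference of -2.34 ± 0.29, adjusted p = 7.35e-05. Injured STR/ort joints differed from 0-day joints by 0.91 for Sned1, the other direction. Megf10 had a mean of 23.3 ± 7.73 CPM in contralateral STR/ort joints against 5.81 ± 0.555 CPM in C57BL/6 and 7.41 ± 0.820 CPM in MRL/MpJ, while injured joints averaged 9.41 ± 1.03 CPM, 7.95 ± 0.779 CPM and 9.95 ± 1.19 CPM. The effect in STR/ort was lower than in C57BL/6 by a log2 value of -1.78 ± 0.21, adjusted p = 2.38e-05. Col14a1, a collagen of fibril surfaces, measured 369, 364, 349.9, 348 and 359 CPM in the injured joints and 216, 218, 99.0 and 179 CPM in the contralateral joints in STR/ort and rose in all 3 strains, by 1.01, 2.32 and 2.81. Its effect in STR/ort was smaller than in MRL/MpJ (-1.80 ± 0.21, adjusted p = 1.31e-05), beside contralateral means of 178 ± 55.5 CPM and 24.6 ± 3.23 CPM. By list, in STR/ort, then C57BL/6, then MRL/MpJ, the collagens rose in 14, 14 and 12 of 15 members, the muscle regeneration genes in 8, 1 and 1 of 18, and the osteoblast genes fell in 9, 1 and 0 of 17 (12, 4 and 3 at an unadjusted p below 0.05 by edgeR, beside 33.3%, 22.3% and 14.2% of all genes). Within these lists, the direct tests called Col14a1 with a smaller effect against C57BL/6, and Col14a1 and Col6a6 smaller and Col12a1 larger against MRL/MpJ. Sln had a larger effect against C57BL/6, and Chrna1 and Myh3 against MRL/MpJ. Of the 17 osteoblast genes, 0 were called against either strain by edgeR, with 6 and 5 at an unadjusted p below 0.05, beside 11.5% and 12.8% of all genes.

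Some matrix and synovial genes that rose in the other strains were not called in STR/ort. Fn1 had log2 fold changes of 0.03 in STR/ort, 1.62 in C57BL/6 and 1.48 in MRL/MpJ, and its effect in STR/ort differed from that in C57BL/6 by -1.59 ± 0.25, adjusted p = 0.000919. Prg4, lubricin, the lubricant of the cartilage surface, measured 7718, 9430.1, 10678, 7001 and 7544 CPM in the injured joints and 8808, 18563, 6094 and 9045 CPM in the contralateral joints in STR/ort. Its log2 fold changes were -0.33, 1.41 and 1.13 in the 3 strains in the same order, with a difference from C57BL/6 of -1.74 ± 0.26, adjusted p = 0.000568, and from MRL/MpJ of -1.46 ± 0.27, adjusted p = 0.00373. Its contralateral mean was 10628 ± 5457 CPM in STR/ort, 988 ± 177 CPM in C57BL/6 and 1274 ± 34.8 CPM in MRL/MpJ, and the injured means were 8474 ± 1531 CPM, 2581 ± 158 CPM and 2735 ± 212 CPM. Mmp3 (0.54, 2.35 and 2.90) and Comp (-0.07, 0.98 and 1.01) were also lowest in STR/ort and were called in both direct tests. In STR/ort the contralateral joints stood above 0-day for Fn1 (1.43), Prg4 (1.29), Mmp3 (2.06) and Comp (1.22) on the log2 scale. With RUVg none was called, although the fitted values were 1.9, 2.36, 1.76 and 1.4 in the same order.

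**Figure D5:**
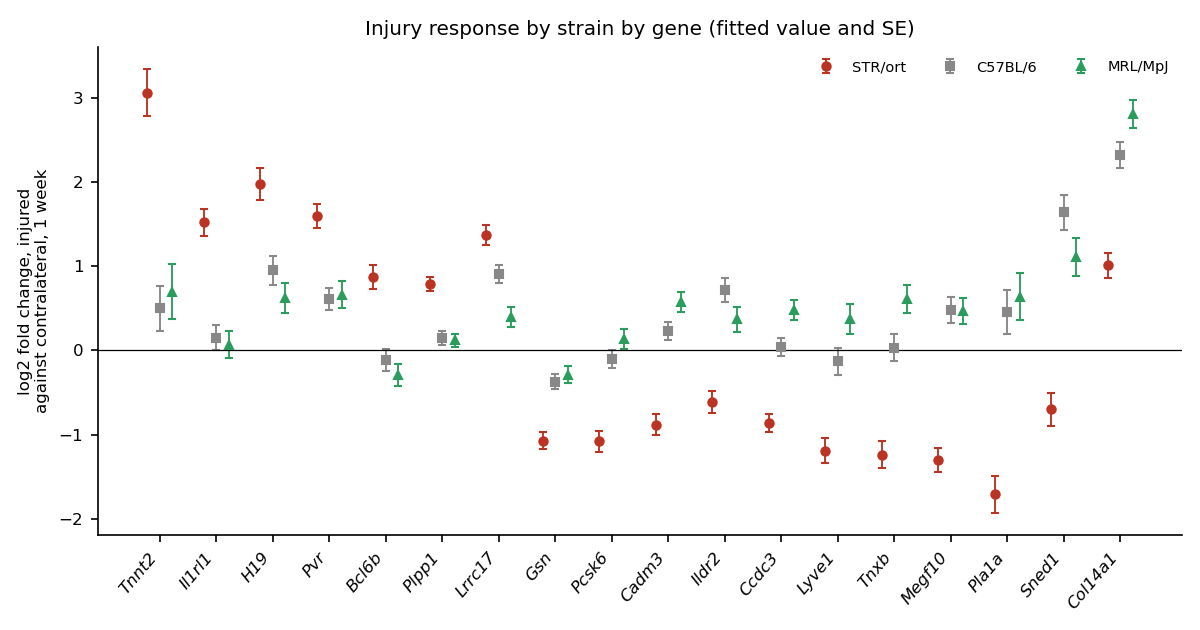
Fitted log2 fold change of injured against contralateral joints at 1 week (y axis, with standard error bars) for 18 genes in STR/ort (circles), C57BL/6 (squares) and MRL/MpJ (triangles). The 7 genes at the left have their highest value in STR/ort, the next 10 are below 0 in STR/ort and lower there than in both other strains, and Col14a1 is above 0 in all 3 and lowest in STR/ort.

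The STR/ort response at 1 week was compared with that at 1 day. At 1 day, 746 genes were called (4.31%), 279 higher (1.61%) and 467 lower (2.7%), and the test of the difference in injury effect between 1 week and 1 day called 774 genes (4.47%), 631 with a higher effect at 1 week (3.65%) and 143 with a lower one (0.826%), a higher share of 81.5%, or 92% when scaled on housekeeping genes, 78.9% by DESeq2 and 74.8% with the joints paired. Of the 982 genes that rose at 1 week, 14.3% were called higher at 1 day, and 42 genes were called lower there. The collagen list had 0 rises and 2 falls at 1 day by edgeR, with 5 of 15 members at an unadjusted p below 0.05 beside 22.2% of all genes, and 14 rises at 1 week. Aspn had a log2 fold change of -1.03 at 1 day and 1.95 at 1 week, a difference of 2.97 ± 0.42, adjusted p = 0.000146. C1qtnf3 went from -0.71 to 4.81 (difference 5.52 ± 0.60, adjusted p = 9.94e-06), and Itm2a, Meg3 and Ptn, lower at 1 day (-0.76, -0.67 and -1.03), were higher at 1 week. Ccl2 moved the other way, with 3.52 at 1 day and 1.30 at 1 week (difference -2.23 ± 0.61, adjusted p = 0.0327), as did Ccl7 (4.29 and 1.72), Il11 (3.98 and 2.27), Cxcl5 (3.30 and 1.29) and Msr1 (2.28 and 0.62). Tnfaip6 (2.82 and 3.23), Ptgs2 (2.19 and 3.09), Timp1 (2.35 and 1.46) and Lox (1.08 and 1.43) were called higher at both times, with no called difference.

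At 2 weeks the STR/ort joints, which formed another batch, gave 807 calls (4.66%), 752 higher (4.34%) and 55 lower (0.318%). Of the 982 rises at 1 week, 53.1% were also called higher at 2 weeks, 69.3% of that list, whereas 2.78% of the 612 falls were called lower again, 30.9% of that list. Fitted values at 2 weeks were 1.21 for Postn, 3.28 for C1qtnf3, 3.62 for Tnfaip6, -1.65 for Cytl1, 0.91 for Tnnt2 and 0.30 for Myh3. The fast muscle list had 11 falls at 1 day, 12 at 1 week and 0 at 2 weeks (1 at an unadjusted p below 0.05, beside 26.4% of all genes), and the osteoblast list 0 (4), 9 (12) and 1 (6) by edgeR. Because batch and time cannot be told apart here, no test between 1 week and 2 weeks was made.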

How the data were processed

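Whole knee joints were profiled by poly(A) RNA-seq. The authors aligned reads to mm10 with TopHat2 2.0.11 and assigned them to RefSeq genes with featureCounts, and the deposited values are raw counts per gene. They kept genes with at least 2 counts in at least 5 libraries, a filter that removed 0 of the 17313 listed genes here. Of these, 3 repeated entries were dropped and 17310 tested. Counting was by gene symbol, and reads shared by overlapping genes or near copies cannot be divided. Symbols of 24 of the tested entries had been turned into dates, and these entries stayed in the counts but were not used by name.

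The fit covered the 28 libraries of 1 week (edgeR 4.0.16 in R 4.3.3, TMM, quasi-likelihood test, Benjamini-Hochberg adjustment over all genes), with group as the only term. The 1-day and 2-week contrasts were fitted on the libraries of their own time, the difference between 1 day and 1 week on the 19 STR/ort libraries of both, and the 0-day contrasts on 13 STR/ort libraries. Calls needed an adjusted p below 0.05 and a fold above 1.5, and CPM used TMM factors. Principal components used log2 CPM with a prior count of 2. Scripts were tested on simulated data. Alternatives were other scalings, RUVg, DESeq2 1.42.0, a likelihood ratio test, other filters and fits, a replicate block, each joint left out and, chosen after seeing the data, 0-day joints as control.

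Injured and contralateral joints share replicate numbers. Deviations from group means correlated at 0.239, 0.153, 0.207 and 0.106 for numbers 1 to 4, all above 0.1, so the numbers were taken from the data to pair joints, although no label says so. The 52 gene lists held 837 entries, of which 819 matched by symbol and 5 by synonym and 13 did not match. The genes and lists were chosen with earlier results of these data known. Named genes were in each direction the 10 calls of smallest adjusted p and the 10 of largest fold (mean of at least 1 CPM in the higher group), up to 4 called members of each list by adjusted p (mean of at least 1 CPM over the joints, or the most expressed member where none was called) and, for each difference of injury effects, the 5 smallest adjusted p in each direction among genes also called in STR/ort at 1 week. Other list members were named after their values were seen, and a few genes are not reported here. Promoters and positions came from RefSeq tables for GRCm38.p6.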

Additional observations from a re-analysis of the deposited data

Results flagged for a closer look

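Single joints stood apart from the rest of their group by Dixon's test, which chance alone flags in about 1 of 20 groups. The test was run on the injured and on the contralateral joints of the 193 genes followed. Predicted genes and groups averaging below 1 CPM were left out. With so many groups tested, many flags can arise by chance alone. Injured replicate 1 stood apart for Itm2a (507.5 CPM), Loxl2 (824.7 CPM) and Ogn (416.7 CPM), each the highest of its group, and for Lyve1 (29.1 CPM), the lowest. Injured replicate 4 stood apart for Myh7 (66.1 CPM) and Klf15 (4.07 CPM) and injured replicate 2 for Rpl39l (8.09 CPM). Among contralateral joints, replicate 1 was highest for Bglap (787.4 CPM), Bglap2 (19.7 CPM), Ccl2 (4.15 CPM), Ccl8 (10.7 CPM) and Cxcl16 (16.2 CPM). Contralateral replicate 2 was highest for Acta1 (8363.0 CPM) and Chrna1 (6.17 CPM). Contralateral replicate 3 was lowest for P4ha3 (16.1 CPM), Fkbp14 (38.5 CPM) and Tgfb3 (49.2 CPM), and contralateral replicate 4 stood apart for Moxd1 (7.43 CPM).

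The injury effect of 85 genes differed between STR/ort and C57BL/6 at 1 week by edgeR's quasi-likelihood test. On the log2 scale the effect in STR/ort was higher for Tnnt2 (2.56), Il1rl1 (1.37), Pvr (0.99), Bcl6b (0.98) and Plpp1 (0.64) and lower for Sned1 (-2.34), Megf10 (-1.78), Ildr2 (-1.33), Col14a1 (-1.31) and Cadm3 (-1.11). Between STR/ort and MRL/MpJ 153 genes differed, among them Il1rl1 (1.45), H19 (1.35), Bcl6b (1.16), Lrrc17 (0.97) and Plpp1 (0.67) with a higher effect in STR/ort and Tnxb (-1.85), Col14a1 (-1.8), Megf10 (-1.77), Cadm3 (-1.46) and Ccdc3 (-1.35) with a lower one.

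Within STR/ort the effect of 774 genes differed between 1 week and 1 day. It was higher at 1 week for Fbn2 (3.35), Ptn (3.34), Itm2a (2.83), Meg3 (2.62) and Mfap2 (2.13) and lower for Msr1 (-1.66), Bzrap1 (-1.01), Napsa (-0.82), Csf3r (-0.75) and Myo1g (-0.75).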

How the results depend on the processing

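With each joint left out in turn, the called genes numbered 1187 to 1843, with 735 to 1065 higher and 392 to 795 lower, 392 without injured replicate 1. The falls numbered 343 when only the 9 compared libraries were fitted. With 0-day joints as control, an alternative chosen after seeing the data, 3924 genes were called, 2056 higher and 1868 lower. Paired by replicate number (a replicate block in the fit of the 9 libraries), 1569 genes were called, 979 higher and 590 lower. These held 91.4% of the 982 rises but 74.5% of the 612 falls called without the pairing, and 183 of the 193 genes followed kept their direction and side of the threshold. The blocked values that ended a call are given in the report for the genes named there, and Ccl24, Ptger3, Ildr2 and Lipe also lost theirs. No other call among those 193 changed. The higher share of calls was 61.6% by TMM and 68.3% under housekeeping scaling, and 71.8% in the 9-library fit.

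Against C57BL/6, 155 genes differed with RUVg, 174 by DESeq2, 181 by the likelihood ratio test and 42 in the fit of those strains alone (higher share 28.2%, and 19% to 43.1% over the alternatives with all joints), and 53 (without injured replicate 1) to 142 (without contralateral replicate 3) with 1 joint left out. Against MRL/MpJ the counts were 230 by DESeq2, 250 by the likelihood ratio test, 91 in the fit of those strains alone and 100 to 187 with 1 joint left out. The difference between 1 week and 1 day ranged from 537 to 985 and that of contralateral from 0-day joints from 1742 to 2223 with 1 joint left out, the latter 92 with RUVg. The higher share was 81.5% in the first, 74.8% under the block, 78.9% by DESeq2 and 92.0% under housekeeping scaling, the last moving the median over all genes from -0.0206 to 0.0887, and in the second 40.7%, 29.6% under housekeeping scaling and 60.9% with RUVg. The cause of these shifts was not tested.

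Log2 fold changes reversed against 0-day joints for Ccdc3 (0.129), Dlx5 (0.265), Cxcl1 (-2.54), Cxcl13 (0.163), Ackr2 (0.915), Chil3 (0.0319), Jchain (0.158), Cfd (0.0115), Htra4 (0.203), Ptger3 (0.258), Ier3 (-0.521), Ddx3y (-0.305), Bcl6b (-0.112), Sned1 (0.914) and Ildr2 (0.0618), and the cause was not tested. Sbsn, not called, reversed without injured replicate 1 (-0.0295) and without contralateral replicate 3 (-0.149), in a range of -0.149 to 0.297 with 1 joint left out. Of the 193 genes, 2 to 21 lost their call with 1 joint left out, 21 without contralateral replicate 3, 20 without contralateral replicate 2 (Myh7, Myl2, Ucp1 and Nt5c1a among them) and 18 without injured replicate 1. With other scalings, RUVg, DESeq2 or a likelihood ratio test, 0 to 8 did, against 25 in the fit of the 9 compared libraries and 32 (beside the 15 reversed) with 0-day joints as control.

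With 5 against 4 joints and a median of 9050140 counts each, genes below 1 CPM rest on few reads. Whole joints mix tissues, so changes in composition and in expression cannot be told apart.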
